A study of Mus musculus with 15 samples.

Results

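Cathepsins and legumain are proteases of the lysosome, and 10 of their genes (Ctsa, Ctsb, Ctsc, Ctsd, Ctsh, Ctsk, Ctsl, Ctss, Ctsz and Lgmn) were followed here in BV2 cells, a mouse microglial line. They were chosen by name, and all 10 were found among the 54390 genes counted in every library. Most cathepsins are cysteine proteases that are made as inactive precursors, carried to the lysosome by mannose 6-phosphate receptors and switched on there by acid and by other proteases. Ctsd is an aspartic protease, Ctsa a serine carboxypeptidase and Lgmn a cysteine protease that cuts after asparagine. In macrophages these enzymes degrade what the cell takes up, trim antigens and the invariant chain, and, when released, cut elastin and collagen.

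The libraries formed 4 groups that differed in genotype and in treatment overnight. WT non-foamy cells (n = 4) and Trem2-/- non-foamy cells (n = 3) were kept in medium alone. WT foamy cells (n = 4) and Trem2-/- foamy cells (n = 4) received 20 µg/ml soluble cholesterol. The study's methods state that this cholesterol was prepared with methyl-beta-cyclodextrin, and they name no non-foamy control with that carrier. Cholesterol below therefore means the preparation, in which the sterol and the carrier cannot be told apart. The Trem2-/- cells were made from Cas9-expressing BV2 cells with a guide against Trem2, the gene of a lipid-sensing myeloid receptor, and were expanded from single cells, so a difference of genotype and a difference of clone cannot be told apart. Whether the WT cells carried Cas9 or had passed through cloning, and how many Trem2-/- clones were sequenced, is not given in the sources used here. Nothing in the labels says that replicates came from separate cultures, so p-values measure the spread between these libraries, which may be technical. The libraries held 23538963 to 41683825 counted reads, and the lowest count of any of the 10 genes in any library was 6217. Over all genes WT non-foamy replicate 3 stood apart from its group, its counts giving chi-square values of 31.1 to 40.1 a gene when set against the other 3 libraries, which gave 6.36 to 7.58 among themselves. WT foamy replicate 1 was also farther from the rest of its group (19.04 to 45.2) than these were from each other (8.38 to 15.7). So was Trem2-/- foamy replicate 4 (15.5 to 24.65, against 6.83 to 10.83 among the rest of that group).

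Trem2 itself was measured first. Its level was 329, 345, 415 and 327 CPM (reads relative to the size of the library, scaled by TMM factors) in the WT non-foamy and 337, 372, 399.6 and 383 CPM in the WT foamy libraries. It was 232, 214 and 220.5 CPM in the Trem2-/- non-foamy and 227, 227, 218 and 226 CPM in the Trem2-/- foamy libraries. Every Trem2-/- library lay below every WT library, and the transcript was still counted in all of them (log2 fold change -0.67 ± 0.078 s.e. in non-foamy and -0.73 ± 0.071 in foamy cells, adjusted p = 2.84e-07 and 7.09e-08, edgeR quasi-likelihood test). The study's methods give the guide, but the edits it left in these cells were not analysed here, and a count over the whole gene does not check them. The paper reports loss of the Trem2 protein in its Trem2-/- BV2 cells, measured by flow cytometry.

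Of 15 markers of microglia and macrophages, all 15 passed the filter on low counts, with Lyz2 (lysozyme) the most abundant at 3252 CPM in WT non-foamy cells. The markers of resident microglia Cx3cr1, P2ry12, Tmem119 and C1qa were near 0, with group means of 0.0781 to 1.76 CPM. All 6 fibroblast markers (Col1a1, Col1a2, Col3a1, Dcn, Pdgfra and Lum) were at 0 in every library, and the lists for neutrophils, mast cells, T and NK cells, B cells, astrocytes, neurons, oligodendrocytes and epithelium each summed to at most 3.09 CPM in any library.

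The 10 genes together took 1.62 to 1.72% of all counts in WT non-foamy, 1.82 to 2.004% in WT foamy, 2.63 to 2.71% in Trem2-/- non-foamy and 2.41 to 2.58% in Trem2-/- foamy libraries. Their summed level was 15891 ± 660.1 CPM (SD, n = 4), 18339 ± 691 CPM (n = 4), 28152 ± 588 CPM (n = 3) and 26260 ± 608 CPM (n = 4) in the same order. No library of one group reached the range of another. In bulk samples a change in the number of cells that express a gene and a change in RNA per cell cannot be told apart.

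Levels between genes were compared per length, as CPM per kilobase of annotated exon. In WT non-foamy cells the order was Ctsk (1880.5 ± 150.1 CPM per kb, SD, n = 4), Ctss (1328 ± 136), Ctsz (1236 ± 31.3), Ctsb (626 ± 24.6), Ctsd (599 ± 20.9), Lgmn (319 ± 13.5), Ctsa (313 ± 12.4), Ctsl (234 ± 19.1), Ctsh (58.3 ± 6.395) and Ctsc (46.4 ± 3.12 CPM per kb). The neighbours Ctss and Ctsz, Ctsb and Ctsd, and Lgmn and Ctsa overlapped in their libraries there, and the other neighbours did not. The order was the same in Trem2-/- foamy cells, and in WT foamy and Trem2-/- non-foamy cells only Lgmn and Ctsa, which overlapped in every group, changed places. The widest range was between Ctsk, a collagen-cutting protease best known from the osteoclast, at 4114 ± 191 CPM per kb and Ctsc at 38.1 ± 0.412 CPM per kb in Trem2-/- non-foamy cells (n = 3). Ranked by CPM among the 14237 genes tested, Ctsb moved from place 14 in WT non-foamy to place 7 in Trem2-/- non-foamy cells, Ctsk from place 32 to place 10 and Ctss from place 66 to place 30. These lengths join every annotated isoform, and with the length of the longest transcript instead the order kept all places but those of Ctsa and Lgmn.

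**Figure D1:**
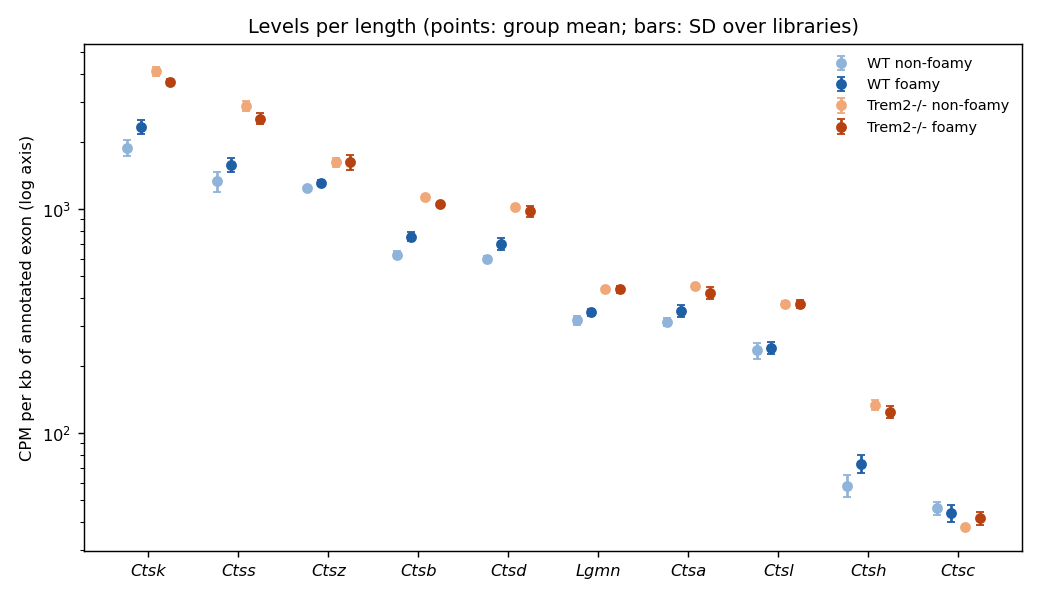
Level of each gene per kilobase of annotated exon on a log axis, as the mean of the libraries in each of the 4 groups with bars for SD (n = 4, and n = 3 for Trem2-/- non-foamy cells). Ctsk and Ctss stood highest in all groups and Ctsh and Ctsc lowest, and Ctsc alone had its lowest point in Trem2-/- non-foamy cells.

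Without cholesterol, all 10 genes differed between Trem2-/- and WT cells: 9 were higher and Ctsc was lower in Trem2-/- cells (edgeR quasi-likelihood test with Benjamini-Hochberg adjustment over 14237 genes, called at an adjusted p under 0.05; values after ± are s.e. for log2 fold changes and SD for levels). The genotypes differed at many genes, and 43.6% of all tested genes were called, 21% as higher and 22.6% as lower. WT and Trem2-/- libraries lay apart, with no overlap, in all 10 genes, against 46.1% of all tested genes. The median log2 fold change was 0.73 over the 10 genes and 0.017 over all tested genes. Among the 515 genes at least as abundant as Ctsc, calls were more frequent, with 67.6% called and 45.05% called as higher. Scaling by total counts alone moved the median of all genes by more than 0.1, to -0.13 in the comparisons of genotype both without and with cholesterol, and turned the split of all called genes without cholesterol from 2985 higher and 3222 lower to 1820 higher and 4379 lower. Under it 9 of the 10 genes remained called as higher and Ctsc as lower without cholesterol, with a median of 0.59 for the 10 genes.

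**Figure D2:**
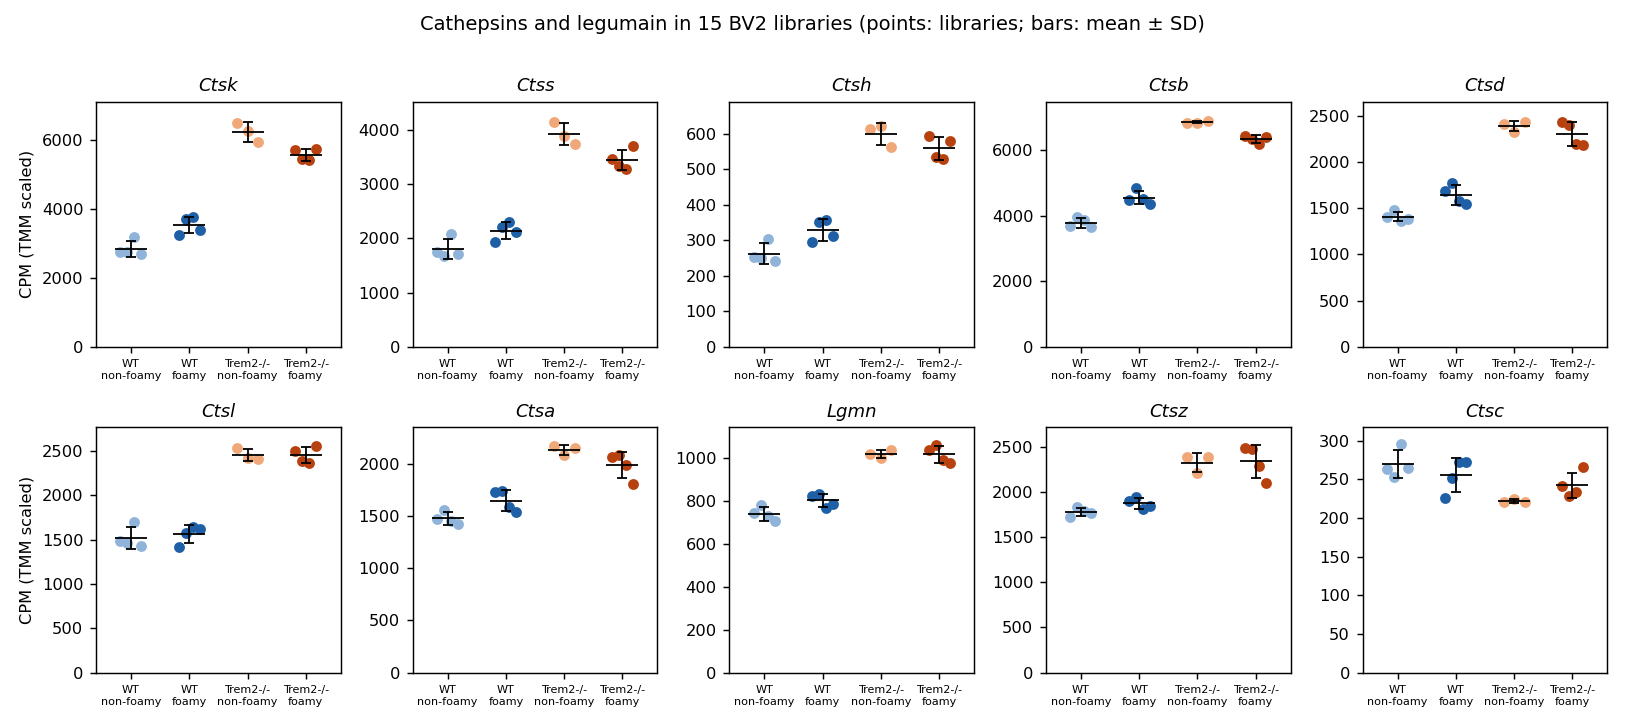
Level of each of the 10 genes in CPM (TMM scaled, axes from 0) in the 15 libraries, with 1 point per library and bars for the mean ± SD of each group. For 9 genes both Trem2-/- groups lie above both WT groups, and for Ctsc the Trem2-/- non-foamy libraries lie below the WT libraries.

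Among the endopeptidases, which cut inside a protein chain, Ctsk and Ctss differed most. Ctsk was 2756, 2760.0, 3179 and 2678 CPM in WT non-foamy and 3251, 3695, 3748 and 3398 CPM in WT foamy libraries. It was 6496, 6245 and 5920.4 CPM in Trem2-/- non-foamy and 5692, 5430.0, 5412 and 5741 CPM in Trem2-/- foamy libraries. The lowest Trem2-/- library was above the highest WT library, and the fold was 2.19 without cholesterol (log2 fold change 1.13 ± 0.075, adjusted p = 7.04e-11).

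Ctss, an elastin-cutting protease that keeps its activity at neutral pH and degrades the invariant chain of MHC class II, had the same pattern. Its level was 1746, 1679, 2077 and 1709.7 CPM in WT non-foamy and 1942, 2204, 2297 and 2123 CPM in WT foamy libraries. It was 4141, 3881 and 3734 CPM in Trem2-/- non-foamy and 3470.5, 3327, 3272 and 3698 CPM in Trem2-/- foamy libraries. The genotypes did not overlap in either treatment, and without cholesterol Ctss was 2.17-fold higher in Trem2-/- cells (log2 fold change 1.12 ± 0.08, adjusted p = 2.5e-10).

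Ctsk (chr3:95499256-95509362, plus strand, GRCm38) and Ctss (chr3:95526786-95556403, plus strand) are neighbours in the genome, separated by 17.4 kb. They share no exonic base or stretch of 50 bases with any other annotated gene. Because these neighbours moved together, the 250 bases before the RefSeq start of each (GRCm38.p6) are shown, at chr3:95498960-95499209, plus strand, and at chr3:95526536-95526785, plus strand. Capitals mark the E-box CACGTG, which is bound by TFEB, TFE3 and MITF, regulators of lysosomal genes, and neither window holds it.
Ctsk: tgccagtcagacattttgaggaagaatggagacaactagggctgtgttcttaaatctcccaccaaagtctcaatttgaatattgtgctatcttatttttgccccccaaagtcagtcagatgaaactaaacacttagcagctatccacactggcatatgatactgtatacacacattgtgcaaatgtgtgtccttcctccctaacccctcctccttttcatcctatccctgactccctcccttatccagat
Ctss: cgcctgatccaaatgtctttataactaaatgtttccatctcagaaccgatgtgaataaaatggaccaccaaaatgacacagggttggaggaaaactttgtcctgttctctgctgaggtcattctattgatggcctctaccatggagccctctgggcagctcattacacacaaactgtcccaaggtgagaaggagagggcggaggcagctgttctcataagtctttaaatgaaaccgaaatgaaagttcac
Both windows are poor in G and C (43.2% for Ctsk and 44.8% for Ctss). TATAAA is found on either strand in 12.4% of the 32851 mouse windows of the same length. The window of Ctss holds 1, read on the strand opposite to the one shown, and that of Ctsk none. Neither holds GAGGAAGT (in 2.44% of windows, on either strand) or TGANTCA (6.75%). A match, or its absence, describes these letters in this window and no more.

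Ctsb and Ctsl are endopeptidases of the lysosome that are found in nearly every tissue. Ctsb, the most abundant of the 10 in CPM, was 3675, 3957, 3872 and 3653 CPM in WT non-foamy and 4491, 4839.8, 4516 and 4365 CPM in WT foamy libraries. It was 6836, 6846 and 6902 CPM in Trem2-/- non-foamy and 6438, 6340.1, 6194 and 6409.6 CPM in Trem2-/- foamy libraries. The 3 Trem2-/- non-foamy libraries of Ctsb lay within 1% of their mean, and their difference from WT was 1.81-fold (log2 fold change 0.86 ± 0.064, adjusted p = 4.65e-10). Of the exonic bases of Ctsb, 12.8% also belong to Fdft1 on the opposite strand, an enzyme of cholesterol synthesis, and the strand setting of the counting is not given. Fdft1 had 89.99 CPM in WT non-foamy and 51.0 CPM in WT foamy cells, and 39.3 and 53.0 CPM in the Trem2-/- cells, at most 2.49% of the count of Ctsb in any library.

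Ctsl was 1480.3, 1456, 1701 and 1432 CPM in WT non-foamy and 1418, 1569, 1636 and 1618 CPM in WT foamy libraries. It was 2530.1, 2421 and 2412 CPM in Trem2-/- non-foamy and 2498, 2389, 2358 and 2550.2 CPM in Trem2-/- foamy libraries. The groups fell into 2 levels by genotype, with overlap between treatments within each, and the difference was 1.62-fold without cholesterol (log2 fold change 0.69 ± 0.072, adjusted p = 5.46e-08). Its exons share 26.9% of their bases with Gm47123 or Gm49230, which were not among the genes counted.

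The exopeptidases Ctsh, Ctsz and Ctsc, which trim residues from the ends of proteins, went apart. Ctsh, an aminopeptidase, was 253, 251, 305 and 241 CPM in WT non-foamy and 295, 352, 356 and 311 CPM in WT foamy libraries. It was 613, 623 and 563 CPM in Trem2-/- non-foamy and 594, 534, 529 and 579.8 CPM in Trem2-/- foamy libraries. Its fold of 2.29 without cholesterol was the largest of the 10 genes (log2 fold change 1.19 ± 0.082, adjusted p = 1.4e-10), though its 95% interval (1.02 to 1.36) overlapped those of Ctsk (0.97 to 1.28) and Ctss (0.95 to 1.29). Ctsz, a carboxypeptidase, ranged over 1729 to 1839 CPM in WT non-foamy and 2212 to 2388 CPM in Trem2-/- non-foamy libraries and differed least of the 9 higher genes (1.31-fold, log2 fold change 0.39 ± 0.068, adjusted p = 7.36e-05).

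Ctsc, a dipeptidyl peptidase that activates the granule proteases of mast cells, neutrophils and cytotoxic lymphocytes, went the other way. It was 264, 253, 295 and 265 CPM in WT non-foamy and 220.0, 224 and 220.4 CPM in Trem2-/- non-foamy libraries. The Trem2-/- libraries lay within 5 CPM of each other and below all WT non-foamy libraries (log2 fold change -0.28 ± 0.074, adjusted p = 0.00352). In foamy cells it was 226, 252, 273 and 272 CPM in WT and 242, 228, 234 and 265 CPM in Trem2-/- libraries, which overlapped (log2 fold change -0.077, 95% interval -0.22 to 0.063, adjusted p = 0.425). Scaled by total counts alone, Ctsc was called as lower in foamy cells too (log2 fold change -0.20, adjusted p = 0.00217). As the gene that went against the others, its window before the RefSeq start (chr7:88277835-88278084, plus strand) is shown beside those of Ctsk and Ctss above.
Ctsc: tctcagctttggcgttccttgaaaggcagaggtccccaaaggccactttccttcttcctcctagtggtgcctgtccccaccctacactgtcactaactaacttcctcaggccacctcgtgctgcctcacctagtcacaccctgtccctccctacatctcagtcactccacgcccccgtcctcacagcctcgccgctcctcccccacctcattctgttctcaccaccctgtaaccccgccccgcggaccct
It has no CACGTG, is richer in G and C (60.4%) than those of Ctsk and Ctss, and holds 1 GAGGAAGT. This letter string, of the type bound by the myeloid factor PU.1, is read on the strand opposite to the one shown.

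Of the other protease classes, Ctsd was 1404, 1477, 1368 and 1380.0 CPM in WT non-foamy and 1686, 1779, 1574 and 1549 CPM in WT foamy libraries. It was 2416, 2327 and 2437 CPM in Trem2-/- non-foamy and 2437, 2401, 2196 and 2186 CPM in Trem2-/- foamy libraries. Trem2-/- libraries were higher throughout (1.701-fold without cholesterol, log2 fold change 0.77 ± 0.068, adjusted p = 5.41e-09). Its exons share 34.4% of their bases with Gm49369 on the same strand, which was not among the genes counted.

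Ctsa, which besides cutting proteins holds the sialidase Neu1 and the galactosidase Glb1 in a stable complex, ranged over 1424 to 1560.0 CPM in WT non-foamy and 2082 to 2169 CPM in Trem2-/- non-foamy libraries (1.44-fold, log2 fold change 0.53 ± 0.069, adjusted p = 1.39e-06). Lgmn, which cuts the precursors of several cathepsins, ranged over 706 to 781 and 1001 to 1038 CPM (1.38-fold, log2 fold change 0.46 ± 0.061, adjusted p = 1.75e-06). In foamy cells Ctsa ranged over 1538 to 1738 CPM in WT and 1810.4 to 2087 CPM in Trem2-/- libraries, Lgmn over 768 to 835 and 977 to 1062 CPM, and Ctsz over 1816 to 1949.9 and 2103 to 2488 CPM. In all 3 genes every Trem2-/- library was above every WT library in the same treatment.

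Windows of 250 bases before a RefSeq start were found for 8 of the 10 genes (10 windows, since Ctsa and Lgmn have 2 each). The E-box CACGTG, which reads the same on both strands, stood in 4 of the 10 windows, 1 each of Ctsa, Ctsd, Ctsl and Lgmn, against 6.02% of the 32851 windows of all genes. The other windows of Ctsa and Lgmn, which lie farther upstream, do not hold it. Those of Ctsa, Ctsl and Lgmn that do lie wholly inside the annotated gene, as do 211 of the 250 bases of the Ctsd window. Ctsd held it at 2 places, as 0.429% of all windows do. The 30 bases around each are shown because windows of these 4 genes, and not those of Ctsk and Ctss, hold the letters; capitals mark the hexamer.
Ctsa: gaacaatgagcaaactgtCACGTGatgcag
Ctsd, far site: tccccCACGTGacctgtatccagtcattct
Ctsd, near site: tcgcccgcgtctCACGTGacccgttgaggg
Ctsl: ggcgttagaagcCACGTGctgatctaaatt
Lgmn: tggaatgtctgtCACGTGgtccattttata
They lie at chr2:164833743-164833772, plus strand (Ctsa), chr7:142388048-142388077, minus strand and chr7:142387908-142387937, minus strand (Ctsd), chr13:64370739-64370768, minus strand (Ctsl) and chr12:102439124-102439153, minus strand (Lgmn), and the hexamers begin 12, 245, 98, 236 and 49 bases before the start. In Ctsa the hexamer is part of the longer palindrome TCACGTGA, as it is at 1 of the places in Ctsd, which 0.785% of all windows hold. The genes with the hexamer in a window had log2 fold changes of 0.53, 0.77, 0.69 and 0.46 between the genotypes without cholesterol, and Ctsk, Ctss, Ctsz and Ctsc, without it, 1.13, 1.12, 0.39 and -0.28.

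In foamy cells the same 9 genes were called as higher in Trem2-/- cells, and Ctsc was not called. Of all tested genes 30.2% were called, 14.3% as higher. WT and Trem2-/- libraries lay apart in 9 of the 10 genes, against 28.8% of all genes, and the median log2 fold change was 0.48 for the 10 genes and 0.00033 for all. Of the 515 genes at least as abundant as Ctsc, 55.2% were called and 42.3% as higher. The folds were 1.703 for Ctsh (log2 fold change 0.77 ± 0.077, adjusted p = 1.06e-07), 1.61 for Ctss (log2 fold change 0.68 ± 0.075, adjusted p = 4.27e-07), 1.58 for Ctsk (log2 fold change 0.66 ± 0.07, adjusted p = 2.42e-07) and 1.57 for Ctsl (log2 fold change 0.65 ± 0.067, adjusted p = 1.71e-07). Ctsd, Ctsb, Lgmn, Ctsz and Ctsa followed at log2 fold changes of 0.48, 0.48, 0.34, 0.32 and 0.27. Scaled by total counts alone, Ctsa lost its call (log2 fold change 0.14, adjusted p = 0.147), and the split of all called genes in foamy cells turned from 2036 higher and 2261 lower to 1115 higher and 3666 lower. The comparisons of genotype and those of cholesterol share libraries, so their values are given side by side and not as separate evidence.

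**Figure D3:**
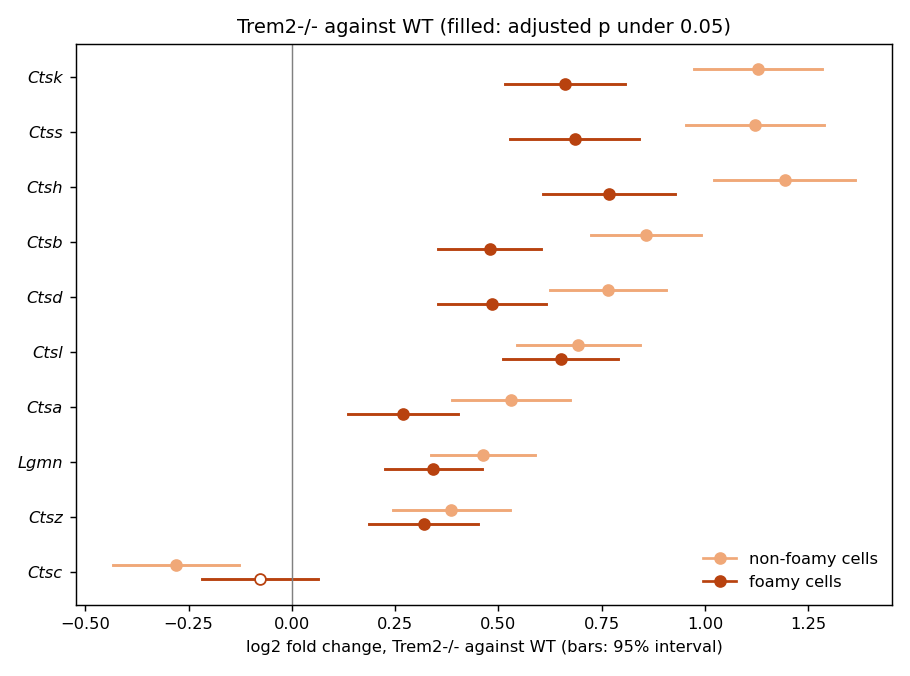
Log2 fold change of each gene between Trem2-/- and WT cells, in non-foamy and in foamy cells, with bars for the 95% interval and filled points for an adjusted p under 0.05. Of the 20 points, 18 lie to the right of 0 with their whole interval, and the 2 of Ctsc lie to the left, the foamy one with an interval that includes 0.

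In WT cells 3 of the 10 genes, Ctsh, Ctsk and Ctsb, were higher with the cholesterol preparation, by less than the genotypes differed. Of all tested genes, 2.8% were called in this comparison and 1.66% as higher, and of the 515 genes at least as abundant as Ctsc, 5.83% and 4.47%. Ctsh was 1.25-fold higher in WT foamy than in WT non-foamy cells (log2 fold change 0.33 ± 0.077, adjusted p = 0.0226), Ctsk 1.24-fold (log2 fold change 0.31 ± 0.07, adjusted p = 0.017) and Ctsb 1.202-fold (log2 fold change 0.27 ± 0.06, adjusted p = 0.0177). The libraries of the treatments did not overlap for 3 genes, Ctsk, Ctsb and Ctsd, against 9.71% of all tested genes. For Ctsh 1 WT non-foamy library, the 305 CPM of replicate 3, lay above 1 WT foamy library, the 295 CPM of replicate 1. Ctsd missed the threshold (log2 fold change 0.23 ± 0.063, adjusted p = 0.0536).

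Ctss (log2 fold change 0.25 ± 0.075, adjusted p = 0.0748) and Ctsa (log2 fold change 0.16 ± 0.064, adjusted p = 0.201) were not called either. The remaining 4 had log2 fold changes of 0.12 for Lgmn (95% interval 0.00019 to 0.23), 0.075 for Ctsz (-0.057 to 0.21), 0.04 for Ctsl (-0.098 to 0.18) and -0.075 for Ctsc (-0.22 to 0.066). The median was 0.19 over the 10 genes and 0.0053 over all tested genes. These calls rested on all 15 libraries: 5 genes were called by DESeq2 (Ctsd and Ctss besides the 3), and none when the 8 WT libraries were fitted alone. None was called without WT non-foamy replicate 1, without WT non-foamy replicate 4 or without WT foamy replicate 2, and 1 without WT non-foamy replicate 2 or without WT foamy replicate 3. Without WT non-foamy replicate 3, which stood apart over all genes, 4 were called, with Ctss at 0.32 (adjusted p = 0.00471) and Ctsh at 0.40 (adjusted p = 0.000994), and without WT foamy replicate 1 also 4.

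In Trem2-/- cells cholesterol changed none of the 10 genes by the edgeR test (0.14% of all tested genes were called), nor by DESeq2. At an unadjusted p under 0.05 there were 2, Ctss (log2 fold change -0.19 ± 0.081, adjusted p = 0.722) and Ctsk (log2 fold change -0.16 ± 0.075, adjusted p = 0.772), both at lower values in foamy cells. In 4 of the 10 genes the libraries of the treatments did not overlap, against 9.26% of all genes: Ctsk, Ctss and Ctsb at lower and Ctsc at higher values in foamy cells. The 95% intervals, which are not adjusted for the number of genes, lay below 0 for Ctss (-0.35 to -0.02) and Ctsk (-0.32 to -0.0042) and ran from -0.25 to 0.021 for Ctsb (-0.11), -0.27 to 0.071 for Ctsh (-0.10) and -0.024 to 0.28 for Ctsc (0.13). With each library's trends on base composition and length removed, an alternative added after the values were seen, Ctss was called as lower in foamy cells (log2 fold change -0.23, adjusted p = 0.0205). Ctsl, Lgmn and Ctsz stood at -0.0033, -0.0028 and 0.0082. The median was -0.077 over the 10 genes and 0.0045 over all tested genes.

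The responses of the genotypes were compared directly as their difference, Trem2-/- minus WT on the log2 scale. It was called for 4 of the 10 genes, all with a lower response in Trem2-/- cells, against 3.64% of all tested genes called and 1.64% called as lower. Among the 515 genes at least as abundant as Ctsc, 8.74% were called and 5.63% as lower. Ctsk differed by -0.47 ± 0.10 (adjusted p = 0.013), Ctss by -0.44 ± 0.11 (adjusted p = 0.0301), Ctsh by -0.43 ± 0.11 (adjusted p = 0.0369) and Ctsb by -0.38 ± 0.088 (adjusted p = 0.0194). The same 4 group means give the smaller difference between genotypes in foamy than in non-foamy cells for these genes, so this is not a separate result.

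Ctsd (-0.28, adjusted p = 0.0951) and Ctsa (-0.26, adjusted p = 0.129) were not called, and Ctsl had a difference of -0.043 with a 95% interval of -0.25 to 0.16. The median difference was -0.27 over the 10 genes and -0.0025 over all. By DESeq2 6 genes were called, Ctsa and Ctsd besides the 4. Without Trem2-/- non-foamy replicate 1 none was called, 1 was called without Trem2-/- non-foamy replicate 2 or without WT foamy replicate 2, and 2 were called without any 1 of WT non-foamy replicates 1, 2 and 4, WT foamy replicate 3 and Trem2-/- foamy replicates 1, 2 and 3. Without WT non-foamy replicate 3, and likewise without WT foamy replicate 1, 4 were called. Scaled by total counts alone, the same 4 genes were called, while the split of all genes moved from 284 higher and 234 lower to 397 higher and 168 lower.

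**Figure D4:**
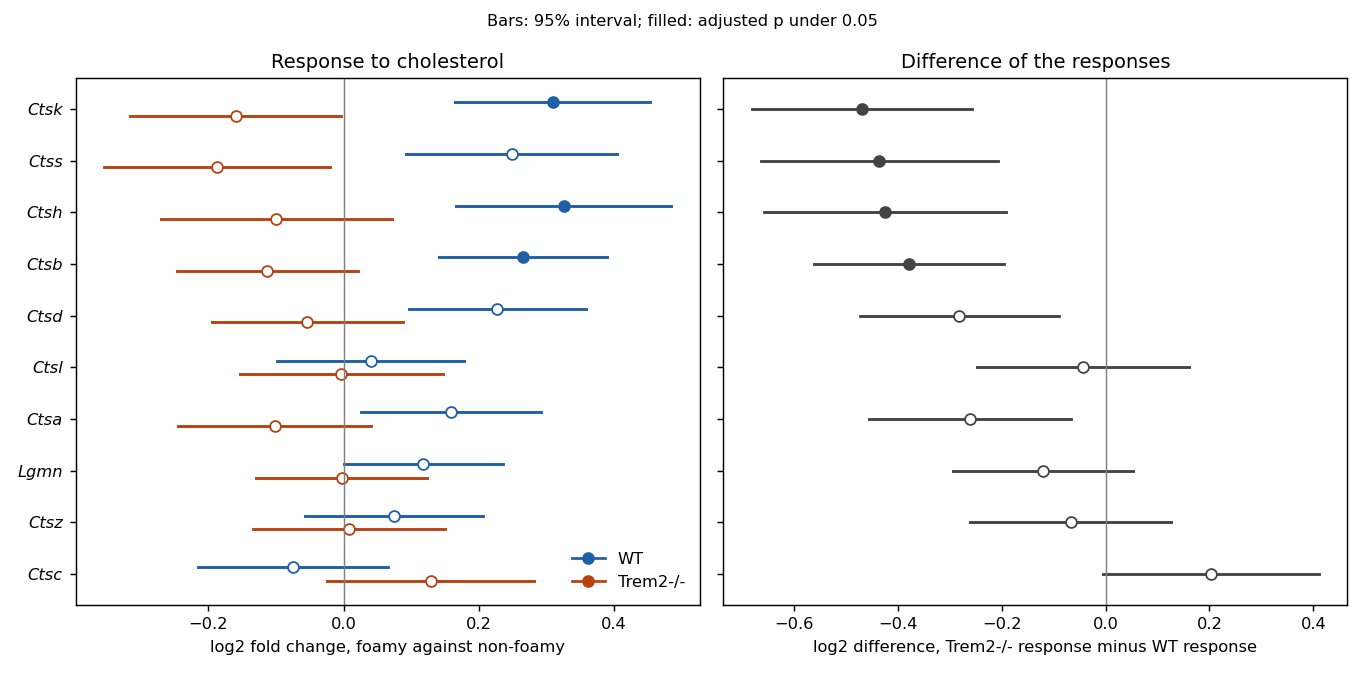
Left, log2 fold change of each gene from non-foamy to foamy cells in WT and in Trem2-/- cells; right, the difference of these responses, with bars for the 95% interval and filled points for an adjusted p under 0.05. Ctsk, Ctss, Ctsh and Ctsb lie to the right of 0 in WT and to the left in Trem2-/- cells, and Ctsl lies near 0 in both.

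Of the 14 remaining cathepsin genes of the mouse, 3 passed the filter. The other 11, among them Ctsg, Ctsw and the placental genes Cts3, Cts6, Cts7, Cts8, Ctsj, Ctsm, Ctsq and Ctsr, had at most 12 reads in any library. Ctsf, a cysteine protease, was at 18.2 in WT non-foamy, 21.1 in WT foamy, 43.6 in Trem2-/- non-foamy and 38.05 CPM in Trem2-/- foamy cells and was called as higher in Trem2-/- cells in both treatments (log2 fold change 1.26, adjusted p = 2.99e-10, and 0.85, adjusted p = 1.13e-07). Ctse and Ctso, at group means of 0.597 to 1.94 CPM, were not called in any comparison.

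Of 19 inhibitors of cathepsins, 6 passed the filter. Without cholesterol 2 were higher and 1 was lower in Trem2-/- cells, and in foamy cells 3 were higher and 1 was lower, against 43.6% and 30.2% of all tested genes called. With so few genes, the count without cholesterol was near that of all genes. Cst3 (cystatin C), the secreted inhibitor of cysteine cathepsins, was at 1163 in WT non-foamy, 1174 in WT foamy, 1598 in Trem2-/- non-foamy and 1639 CPM in Trem2-/- foamy cells (log2 fold change 0.46 and 0.48 between genotypes, adjusted p = 0.000145 and 8.42e-05). Serpinb6a, a serpin of the cytosol, was at 521 in WT non-foamy, 621 in WT foamy, 1016 in Trem2-/- non-foamy and 996 CPM in Trem2-/- foamy cells (log2 fold change 0.96 and 0.68, adjusted p = 2.39e-09 and 4.76e-07). Serpinb1a, an inhibitor of the serine proteases of neutrophil granules, went down instead: it was at 186 in WT non-foamy, 134 in WT foamy, 121 in Trem2-/- non-foamy and 114 CPM in Trem2-/- foamy cells, was lower in Trem2-/- cells (log2 fold change -0.63 and -0.24, adjusted p = 4.19e-07 and 0.0106) and fell with cholesterol in WT cells (log2 fold change -0.47, adjusted p = 0.00029). The difference of its responses was called with the opposite sign to those of Ctsk, Ctss, Ctsh and Ctsb (0.39, adjusted p = 0.0331). Cst7 (cystatin F), which acts inside the lysosome on Ctsc, was called in foamy cells (log2 fold change 0.23, adjusted p = 0.0239) and had 0.17 without cholesterol (adjusted p = 0.0913). Cstb (stefin B), the inhibitor of the cytosol, was not called (0.15 and 0.10).

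All 17 genes for the sorting of lysosomal proteases passed the filter. Without cholesterol 7 were higher and 2 lower in Trem2-/- cells, and in foamy cells 5 were higher, with medians of 0.19 and 0.071. The shares called in either direction were near those of all tested genes (43.6% and 30.2% called). As higher alone, 21% and 14.3% of all tested genes were called, a smaller share than in this list. The list was not tested as a set, so the counts are not read as a result about sorting genes. Both mannose 6-phosphate receptors were higher, the cation-dependent M6pr (log2 fold change 0.33 and 0.25, adjusted p = 0.000207 and 0.00253) and the low Igf2r (4.01 and 9.38 CPM in WT and Trem2-/- non-foamy cells, log2 fold change 1.23). Gnptab, which makes the mannose 6-phosphate tag, was called without cholesterol (0.41, adjusted p = 0.000411). Psap, the precursor of the saposins that activate lipid breakdown in the lysosome, had the pattern of Ctsk: it was at 922 in WT non-foamy, 1201 in WT foamy, 2043 in Trem2-/- non-foamy and 1789 CPM in Trem2-/- foamy cells, rose with cholesterol in WT cells (log2 fold change 0.38, adjusted p = 0.0135) and differed in its response by -0.57 (adjusted p = 0.0107). Vps29 and Nagpa were lower without cholesterol (log2 fold change -0.36 and -0.26, adjusted p = 0.00248 and 0.0423).

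Of 15 genes for transcription factors of lysosomal genes and for the proteins that hold these factors in the cytosol, 14 passed the filter. Without cholesterol 9 were higher and none lower in Trem2-/- cells, and in foamy cells 8 were higher and Tfe3 was lower, with medians of 0.48 and 0.26. Of all tested genes, 21% were called as higher without cholesterol and 14.3% in foamy cells, with medians of 0.017 and 0.00033. Tfeb, a master regulator of lysosome genes, was at 9.62 in WT non-foamy, 11.99 in WT foamy, 16.9 in Trem2-/- non-foamy and 15.8 CPM in Trem2-/- foamy cells (log2 fold change 0.81 and 0.40, adjusted p = 5.73e-07 and 0.0018). Mitf, of the same family, differed by 0.65 and 0.30 (adjusted p = 4.12e-06 and 0.00923). The genes Flcn, Fnip1, Fnip2, Rragc and Rragd, whose proteins recruit these factors to the lysosome surface, were higher in both treatments. Of them Fnip2 was at 109 in WT non-foamy, 146 in WT foamy, 221 in Trem2-/- non-foamy and 197 CPM in Trem2-/- foamy cells, rose with cholesterol in WT cells (0.42, adjusted p = 0.00543) and differed in its response by -0.58 (adjusted p = 0.00736). The others called as higher without cholesterol were Zkscan3 (log2 fold change 0.47, adjusted p = 7.2e-05) and Usf2 (0.50, adjusted p = 7.59e-05). In foamy cells Usf2 was called (0.35, adjusted p = 0.00231) and Zkscan3 was not (0.19, adjusted p = 0.0689). The list does not separate factors that raise lysosomal genes from those that lower them. Spi1 (PU.1), Stat6 and Usf1 were not called in any comparison, with Spi1 at 93.4 and 98.3 CPM in WT and Trem2-/- non-foamy cells.

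Of 17 substrates and partners of the 10 proteases, 12 passed the filter. In Trem2-/- cells 8 of them were higher and none lower in the non-foamy state, and 6 were higher and none lower in the foamy state, with medians of 0.37 and 0.36. Of all tested genes, 43.6% and 30.2% were called, and 21% and 14.3% as higher. Of the 515 genes at least as abundant as Ctsc, 67.6% and 55.2% were called, and 45.05% and 42.3% as higher. Of the tested genes of this list only Grn reached that abundance. Cd74, the invariant chain that Ctss trims, was at 109 in WT non-foamy, 106 in WT foamy, 202 in Trem2-/- non-foamy and 206 CPM in Trem2-/- foamy cells (log2 fold change 0.89 and 0.96, adjusted p = 4.49e-10 and 1.76e-10), while H2-Aa, a chain of MHC class II itself, was at 0 in every library. H2-DMb1, a chain of the peptide loader H2-DM, was at 3.62 in WT non-foamy, 3.53 in WT foamy, 22.6 in Trem2-/- non-foamy and 23.9 CPM in Trem2-/- foamy cells (log2 fold change 2.65 and 2.76, adjusted p = 9.44e-15 and 1.71e-15). H2-DMa, the other chain, had group means of 0.261 to 0.436 CPM and was not called (0.25 and 0.75, adjusted p = 0.707 and 0.236). Tlr7 and Tlr9, receptors that lysosomal proteases cut into their active form, differed by 0.33 and 0.73 without cholesterol (adjusted p = 0.00147 and 0.00231). Of the partners of Ctsa, Glb1 was higher (log2 fold change 0.75, adjusted p = 1.42e-08) and Neu1 was not called (0.11, adjusted p = 0.253). The granule proteases that Ctsc activates, Gzma, Gzmb, Cma1 and Tpsb2, were at 0 in every library, and Elane and Prtn3 were at 0.282 to 0.776 CPM and not called.

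Markers moved with the 10 genes as well. The 15 macrophage markers summed to 7514, 7463, 8877 and 7226 CPM in WT non-foamy and 13254, 12821 and 12579.7 CPM in Trem2-/- non-foamy libraries, with Lyz2 at 3252 and 6318 CPM on average. In foamy cells the sums were 7733, 8711, 9253 and 8575 CPM in WT and 13032, 12223, 12304 and 13459.6 CPM in Trem2-/- libraries. The sums were higher in Trem2-/- cells, but the list did not move as one. In each treatment 9 of the 15 markers were called as higher and 2, Cx3cr1 and P2ry12, as lower in Trem2-/- cells (log2 fold change -2.37 and -1.52 without cholesterol, adjusted p = 7.61e-05 and 0.000302). Itgam, Spi1, Tmem119 and C1qa were not called in either, with C1qa at -1.79 without cholesterol (adjusted p = 0.0611). Of all tested genes, 21% were called as higher and 22.6% as lower without cholesterol, and 14.3% as higher in foamy cells. Of the 515 genes at least as abundant as Ctsc, 45.05% and 42.3% were called as higher. The part of the macrophage markers in the result was not tested.

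Since Ctsk is known from osteoclasts, 8 other osteoclast markers were followed. They summed to 196, 197, 235 and 195 CPM in WT non-foamy, 247, 288, 304 and 266 CPM in WT foamy, 644, 668 and 618 CPM in Trem2-/- non-foamy and 555, 539, 518 and 623 CPM in Trem2-/- foamy libraries. The most abundant by far was Atp6v0d2 (168 CPM in WT and 596 CPM in Trem2-/- non-foamy cells on average), a subunit of the lysosomal proton pump (log2 fold change 1.83 between genotypes without cholesterol, adjusted p = 6.55e-13). Acp5, the tartrate-resistant phosphatase, was at 2.42 and 14.5 CPM in WT and Trem2-/- non-foamy cells. The others did not follow. Calcr, the calcitonin receptor, was at 0 in every library, Mmp9 was at most 0.568 CPM in any group, and Dcstamp, needed for osteoclast fusion, was lower in Trem2-/- cells (4.69 and 1.88 CPM, log2 fold change -1.33, adjusted p = 4.14e-06). Ocstamp, Nfatc1 and Oscar were counted in every library, at group means of 15.8 to 18.4, 10.8 to 12.8 and 1.61 to 2.29 CPM, and were not called between genotypes in either treatment. The dendritic cell list, nearly all Itgax, summed to 58.4 ± 7.25 CPM in WT (n = 4) and 105 ± 4.63 CPM in Trem2-/- non-foamy cells (n = 3).

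How the 10 genes varied among replicates was described with the group means removed, over 15 libraries. They were sorted into 2 blocks, noticed after the values were seen. In one, Ctsa, Ctsb, Ctsd, Ctsz and Lgmn varied together (Pearson r of log2 CPM 0.345 to 0.894, median 0.776), and in the other Ctsc, Ctsh, Ctsk, Ctsl and Ctss did (0.678 to 0.973, median 0.879). Between the blocks r ranged from -0.787 to 0.511, with a median of -0.18. Ctsb did not separate: its r with Ctsh (0.511) and Ctsk (0.483) of the second block was above that with Ctsa (0.471) and Ctsz (0.345) of its own. The blocks also differed in base composition: the transcripts of the first have 49.2 to 57.3% G and C and those of the second 41.1 to 50.05%. The libraries differed in how counts followed base composition, from a log2 change of -0.193 per 10 points of G and C in Trem2-/- foamy replicate 4 to 0.119 in WT foamy replicate 1, and the points share these libraries and their depth. The part of base composition in the blocks was not tested.

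**Figure D5:**
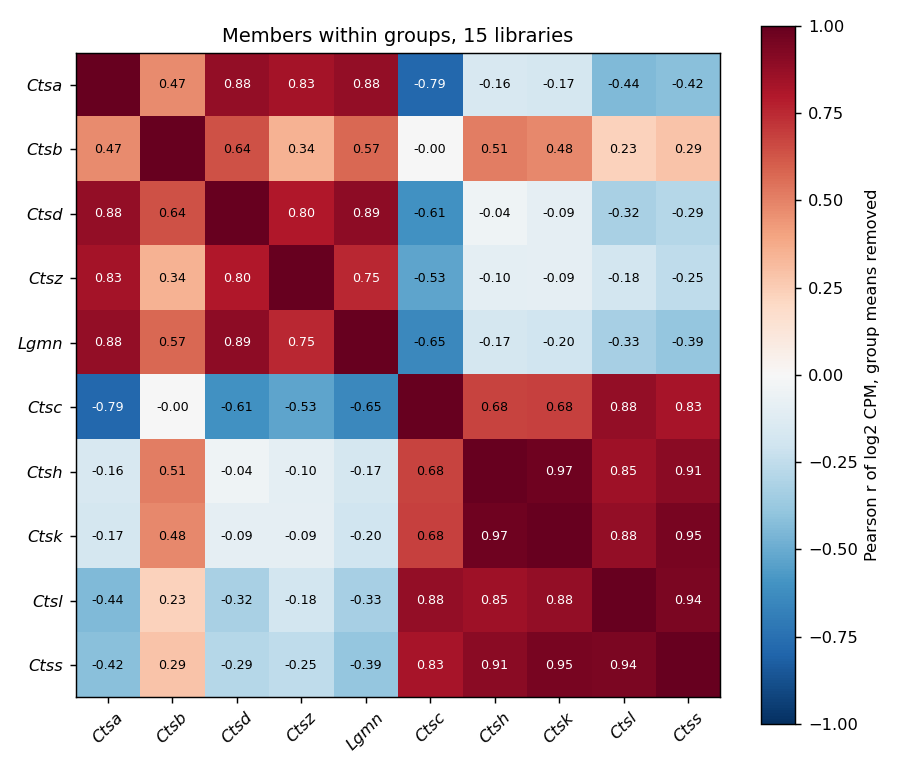
Pearson r of log2 CPM between the 10 genes over 15 libraries after removal of each group's mean, from blue (-1) to red (1). Within Ctsc, Ctsh, Ctsk, Ctsl and Ctss all pairs were at 0.678 or above, and Ctsc was negative or near 0 with each of the other 5 genes.

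Across all 15 libraries, with group differences left in, the genes with the most similar pattern were found among 11698 genes as those with the highest Pearson r of log2 CPM. For Ctsk and Ctss the nearest was Atp6v0d2 (r = 0.998 and 0.995). For Ctsd it was Timp2, an inhibitor of metalloproteases, and then Hexa, which encodes a lysosomal glycosidase subunit (r = 0.996 and 0.995). Ctsb was nearest to Mpeg1, a pore-forming protein of macrophages (r = 0.995), Ctsa to Itm2c (r = 0.993), Ctsl to Sat1 (r = 0.995), Ctsz to the MHC class I gene H2-D1 (r = 0.984) and Lgmn to Bmf (r = 0.994). Ctsc was nearest to Nop10 (r = 0.968). The second genes were Slfn2 for Ctsk (r = 0.997), Igsf6 for Ctss (r = 0.995), Cyp4v3 for Ctsb (r = 0.994), Tmem189 for Ctsa (r = 0.991), Rcbtb2 for Ctsl (r = 0.994), Gpr65 for Ctsc (r = 0.963) and Pld3 for both Ctsz (r = 0.982) and Lgmn (r = 0.989). These are likenesses over groups whose means differ at many genes, and the 15 points share 4 group means.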

How the data were processed

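RNA from 15 BV2 samples was sequenced on a NovaSeq, and the authors deposited raw counts of reads per gene, made with Trimmomatic, HISAT2 and featureCounts in the CHURP pipeline on GRCm38. The strand setting and the treatment of reads with several matches are not given in the sources used here. About 81.4% of low counts (1 to 20) were even, as when both mates of a pair are counted, so the counts may overstate the number of fragments. Libraries were scaled by TMM factors (0.918 to 1.11), and filterByExpr with a minimum count of 10 kept 14237 of 54390 genes. All 15 libraries were fitted with 1 mean per group by edgeR 4.0.16 in R 4.3.3 (glmQLFit, glmQLFTest). The 5 comparisons were adjusted by Benjamini-Hochberg over the 14237 genes, and s.e. is the standard error of the unshrunk coefficient. DESeq2 1.42.0, other scalings and filters, a replicate block and fits without 1 library were alternatives.

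The 10 genes, the gene lists and the tests were chosen with earlier results of these data known. Named were the 10 genes, Trem2, genes of the lists and, except for Ctsh, the 2 genes with the highest correlation to each. Gene positions are from GENCODE on GRCm38, sequences from RefSeq on GRCm38.p6. No pair of the 21 replicate pairs within groups held identical counts. Same-numbered libraries did not deviate together (1 of 21 pairs over a correlation of 0.1), so the numbers were not taken as pairs. The genes whose patterns were most like that of Ctsh are not reported here.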

Additional observations from a re-analysis of the deposited data

Results flagged for a closer look

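In the WT non-foamy group, replicate 3 stood apart from the other 3 libraries for Ctsk (3179 CPM, the next highest 2760 CPM) and for Ctss (2077 CPM, the next highest 1746 CPM), by Dixon's criterion. It was the library with the fewest counted reads (23538963), stood apart from its group over all genes (chi-square per gene of 31.1 to 40.1, against 6.36 to 7.58 among the other 3), and had the highest sum of macrophage markers in its group (8877 CPM). Among the Trem2-/- foamy libraries, replicate 3 stood below the others for Trem2 (217.6 CPM, the next lowest 226.5 CPM). These are 3 of 33 groups tested, and chance flags about 1 in 20 groups.

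The response to cholesterol differed between the genotypes, by the interaction term of the edgeR model, for Ctsk (-0.469), Ctss (-0.4357), Ctsh (-0.4251) and Ctsb (-0.3778), given as the response in Trem2-/- minus that in WT cells on the log2 scale. Among the 15 fits without 1 library, Ctsk was called in 14 and Ctsb in 12. Ctss and Ctsh were called in only 5 each.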

How the results depend on the processing

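The differences between genotypes held in direction for all 10 genes under every alternative, and 10 genes without and 9 with cholesterol were called in each fit that left out 1 library; where a log2 fold change past 1 in size was also asked for there were 3 and 0 (883 and 410 of all genes). The calls on cholesterol depended on the processing. In WT cells, where 3 of the 10 and 399 of all genes were called, DESeq2 called 5 and 881, no filter on low counts 5 and 607, the WT libraries alone 0 and 144, the limit on size 0 and 15, and the fits without 1 library 0 to 4 and 146 to 526. In Trem2-/- cells, where 0 and 20 were called, DESeq2 called 56 of all genes, no filter 61, the limit on size 1 and the fits without 1 library 10 to 18. For the difference of the responses, where 4 and 518 were called, DESeq2 called 985 of all genes, the limit on size 0 and 45, and the fits without 1 library 0 to 4 and 201 to 661. With a replicate block the difference kept 2 calls, Ctsk and Ctsb, and 294 of all genes; the block changed no other count of calls of the 10 genes. An alternative chosen after seeing the data removed each library's trends on base composition and length. It called 5 and 1115 in WT cells, 1 (Ctss) and 49 in Trem2-/- cells and 6 and 1277 for the difference. The share of higher among all called genes in WT cells was 59.4%, and 41.8% with total counts alone, 48.2% with DESeq2 and 46.2% with the trends removed.

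Signs turned in 3 genes, all in the response of Trem2-/- cells and all near 0. Ctsl (-0.0033) was at 0.0037 with total counts, at 0.0056 with the trends removed and at -0.0234 to 0.0195 in the fits without 1 library. Ctsz (0.0082) was at -0.035 with the trends removed and -0.0277 to 0.0563 without 1 library. Lgmn (-0.0028) was at 0.0057 with total counts, at 0.013 with the replicate block and at -0.0233 to 0.0163 without 1 library. The cause was not tested. The fit to only the groups compared was not run for the difference, which uses all groups. The 10 genes had at least 6217 reads in every library.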
